A study of Mus musculus with 3 samples.

Results

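Among GFP-sorted cells of 3 mouse brain tumours, myeloid cells were split by whether they carried transcripts of a tumour transgene, and the 2 classes were compared within each tumour. A myeloid cell was a barcode with at least 500 genes, at most 20% mitochondrial unique molecular identifiers (UMIs) and at least 15 UMIs per 10000 from 6 gate genes, C1qa, C1qb, C1qc, Tyrobp, Fcer1g and Ctss. Of 9286 cells that passed the first pair of filters, 791 passed this gate. They were called transgene-positive with 3 or more UMIs of WPRE (245 cells) and transgene-zero with none (364 cells). The remaining 182 cells, with 1 or 2 WPRE UMIs, entered neither class. WPRE is a viral element placed behind a transgene to raise its expression, and the labels do not say which construct carried it.

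Tumours 1, 2 and 4 share 1 genotype, H3f3aK27M PdgfraD842V Trp53R270H, and there was no tumour-free or untreated group. Each brain had been electroporated with MADR constructs 1 or 2 days after birth. The mice were heterozygous for a reporter allele, Gt(ROSA)26Sortm4(ACTB-tdTomato,-EGFP)Luo, on a B6.129(Cg) background, which changes a ubiquitous tdTomato to membrane EGFP on recombination. The tumours were taken at postnatal day 150, 106 and 149, dissociated, and sorted for GFP, so that myeloid cells without WPRE had also passed the GFP gate. Libraries came from the 10x Genomics 3′ kit, which reads transcripts near their end and does not cover a distant protein change. A difference between tumours cannot be told apart from one between animals, ages or libraries. The p-values come from a spread that the test estimates over these 3 animals with all tested genes pooled. They and the standard errors (SE) do not measure the spread of a single gene over the animals.

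Microglia are the resident macrophages of the brain. They keep themselves in place through receptors such as Csf1r and Cx3cr1, and take up dead cells and debris through receptors such as Trem2, Axl and the Fc receptors, with digestion in lysosomes. In gliomas they mix with macrophages that enter from blood. Oligodendrocyte progenitors, the glial precursors marked by Olig1, Ptprz1 and Pdgfra, are a lineage that many gliomas with mutant histone H3 resemble. RNA of progenitor genes in a myeloid barcode can therefore be read against the level in non-myeloid tumour cells and against that in transgene-zero myeloid cells.

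The 3 libraries held 47120617, 15231673 and 53551127 UMIs, in the order of tumours 1, 2 and 4, with 3361, 1548 and 4377 cells after filtering. The libraries shared from 6 to 20 cell barcodes by pair, and 1 or 2 myeloid cells in each pair were among them. Median levels of T or NK cell, B cell and vascular markers were at or near 0 in both myeloid classes. Markers of homeostatic microglia, the unstimulated resident state, had medians of 12.1, 16.9 and 15.8 UMIs per 10000 in transgene-positive cells of tumours 1, 2 and 4. In non-myeloid transgene-positive cells (gate genes under 5 per 10000) they were 1.60, 2.75 and 3.17. Transgene-zero cells had medians of 33.1, 51.0 and 48.7. Transgene-positive cells at gate values of 15 to 30 (25, 36 and 11 cells) had 6.62, 5.94 and 4.35. Their progenitor medians, over a list of 25 genes, were 32.6, 43.3 and 40.5, beside 38.4, 41.5 and 48.8 in non-myeloid transgene-positive cells. Both classes thus held microglial transcripts, but these low-gate cells lay near non-myeloid cells in progenitor genes. Myeloid here names cells past the gate, which makes no finer cell type.

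The myeloid share of cells was 4.79%, 35.0% and 2.01% in tumours 1, 2 and 4. Transgene-positive cells made up 67.7% of the 161 myeloid cells of tumour 1 (exact binomial 95% interval 59.9 to 74.8%). In tumour 2 they made up 16.6% of 542 (13.6 to 20%) and in tumour 4 52.3% of 88 (41.4 to 63.0%). Mean and spread were 45.5% ± 26.2 (SD, n = 3). Intervals here cover counting error only. The shares depended on both limits: they were 46.7%, 4.99% and 24.5% at a gate of 100, and 92.5%, 39.3% and 73.9% at 1 or more WPRE UMIs. In tumour 2, 36 of the 90 transgene-positive cells lay at gate values of 15 to 30. Non-myeloid cells with 3 or more WPRE UMIs were 86.4%, 49.2% and 90.6%, so tumour 2 was lowest in both compartments. Cells between the non-myeloid limit and the gate entered neither, and these were 70, 630 and 34 cells, so the 49.2% of tumour 2 covers 376 cells only. The zero class was small outside tumour 2, with 12, 329 and 23 cells.

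The cells were chosen by their gate-gene and WPRE counts, so these values are given as description. Transgene-positive cells had a median of 10, 6 and 7.5 WPRE UMIs in tumours 1, 2 and 4, beside 7, 5 and 9 in the non-myeloid transgene-positive cells. Gate genes had medians of 70.3, 46.2 and 67.4 UMIs per 10000 in transgene-positive cells and 266.1, 261.8 and 264.7 in transgene-zero cells. C1qa, a complement subunit made by microglia, stood at 2165, 1689 and 1644 CPM (counts scaled to the same total) in sums of positive cells thinned to 2500 UMIs and at 6100, 6836 and 6052 in the zero sums. It was 24.9, 88.6 and 4.98 CPM in the non-myeloid transgene-positive sums. The transgene-positive cells therefore passed the gate with lower complement levels than transgene-zero cells, and far above the non-myeloid cells.

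Cells just inside and outside the 2 limits differed by tumour. With exactly 2 WPRE UMIs, the progenitor list (25 genes) had medians of 8.91, 8.60 and 13.9 UMIs per 10000, over 20, 31 and 6 cells. With exactly 3 it had 8.01, 39.2 and 48.5, over 9, 15 and 3 cells. At gate values of 10 to 15 per 10000, outside the gate, the list had medians of 60.4, 37.9 and 51.9 over 12, 138 and 10 cells. At 15 to 20, inside it, they were 32.4, 30.6 and 39.1 over 11, 35 and 8 cells.

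Depth and quality moved with the split. Transgene-positive cells had median totals of 18200, 8899 and 11632 UMIs, and transgene-zero cells 9318, 6908 and 7798. The mitochondrial share was 6.75%, 9.40% and 6.07% in positive cells and 3.54%, 4.42% and 3.92% in zero cells. Median Scrublet scores, which rate how much a barcode looks like a mix of 2 cells, were 0.0643, 0.0315 and 0.0841 against 0.0232, 0.00542 and 0.0397. Scrublet itself called 0, 3 and 0 cells, too few to be taken as working. To compare at equal depth, each cell was thinned at random to 2500 UMIs and the thinned counts were summed per tumour and class. Levels below are CPM of those sums, which held 272500, 225000 and 115000 UMIs for the positive class and 30000, 822500 and 57500 for the zero class. A single UMI in the zero sum of tumour 1 is thus worth far more CPM than elsewhere.

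Progenitor transcripts were more abundant in transgene-positive than in transgene-zero myeloid cells, with the smallest ratios in tumour 1. At equal depth the ratio was 2.68, 10.2 and 7.5 for Olig1 and 2.945, 26.1 and 4.7 for Ptprz1 in tumours 1, 2 and 4. Olig1, a transcription factor of the oligodendrocyte lineage (ENSMUSG00000046160, GRCm38 chr16:91269772-91271933, plus strand), stood at 536, 742 and 1174 CPM in the positive sums of tumours 1, 2 and 4. In the zero sums it stood at 200.0, 72.9 and 157 CPM. Every positive sum lay above every zero sum. The fitted difference was 2.73 ± 0.37 on the log2 scale (SE, 3 tumours; edgeR quasi-likelihood test, tumour as block; adjusted by Benjamini-Hochberg, adjusted p = 3.16e-11). With WPRE status read after thinning the difference was 1.40 (adjusted p = 0.00164). Non-myeloid transgene-positive cells held 1158, 884 and 1675 CPM of Olig1, so that the myeloid positive level was 46.3%, 83.9% and 70.1% of theirs.

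Ptprz1, a receptor-type phosphatase of progenitors and glioma cells (ENSMUSG00000068748, GRCm38 chr6:22875502-23052916, plus strand), stood at 393, 444 and 409 CPM in the positive sums. In the zero sums it stood at 133, 17.0 and 87.0 CPM, again without overlap. It rose by 3.45 ± 0.41 on the log2 scale (SE; edgeR adjusted p = 4.86e-14). Tumour 2 weighed on the size of this difference, which was 1.97 without it (adjusted p = 0.00306). The non-myeloid transgene-positive cells held 501, 452 and 596 CPM of Ptprz1.

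Pdgfra, the platelet-derived growth factor receptor of progenitors and 1 of the altered genes of the model (ENSMUSG00000029231, GRCm38 chr5:75152292-75198215, plus strand), was read at low depth. Its positive sums held 25, 8 and 6 thinned UMIs, or 91.7, 35.6 and 52.2 CPM. Zero sums held 2, 1 and 0 UMIs, or 66.7, 1.22 and 0 CPM. The exact Poisson 95% interval for the zero sum of tumour 1 ran from 8.07 to 241 CPM, so no difference was detectable there at equal depth. Pdgfra fell below the filter on low counts in the main fit at equal depth and was not tested there. With all UMIs kept, the positive sums held 99.4, 37.2 and 65.2 CPM and the zero sums 27.7 (3 UMIs), 1.71 (4 UMIs) and 0. In tumour 4 the positive level was then at least 4.56-fold higher than the limit of 3 counts, and the fit without thinning gave 3.30 ± 0.50 on the log2 scale (edgeR adjusted p = 2.33e-08). Other fits, on thinned cells, did test Pdgfra. Without the filter the log2 difference was 2.90 ± 0.88 (edgeR adjusted p = 0.0296), and without tumour 4 it was 2.63 ± 1.09 (adjusted p = 0.0993). With positive cells taken at 1 or more WPRE UMIs it was 2.67 ± 0.86 (edgeR adjusted p = 0.0147). Counts do not tell the altered Pdgfra from the endogenous gene.

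**Figure D1:**
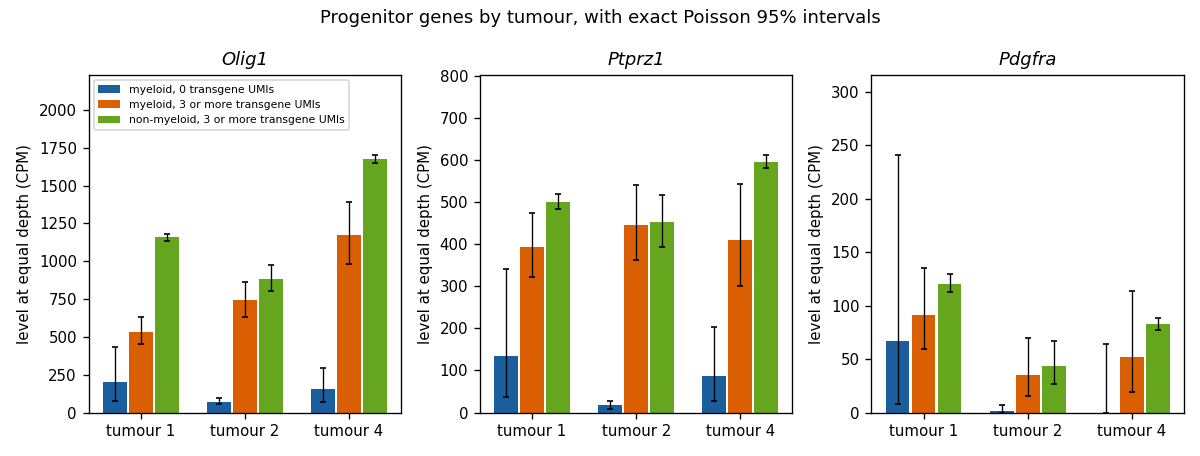
Levels of Olig1, Ptprz1 and Pdgfra (CPM of cells thinned to 2500 UMIs) by tumour. Bars are transgene-zero myeloid, transgene-positive myeloid and non-myeloid transgene-positive cells, with exact Poisson 95% intervals that cover counting error only. Olig1 in transgene-positive myeloid cells ranges from 536 to 1174 CPM and in transgene-zero cells from 72.9 to 200.0 CPM, and the intervals of Pdgfra overlap in tumours 1 and 4.

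Shares of cells with at least 1 UMI gave the same order for Olig1. At 2500 UMIs per cell Olig1 was read in 71.6%, 70.0% and 84.8% of transgene-positive cells and in 50%, 13.1% and 34.8% of transgene-zero cells. The source of Olig1 in the zero cells was not tested. In the non-myeloid transgene-positive cells Olig1 was read in 86.7%, 72.4% and 92.7%. Unthinned shares of the 2 myeloid classes were 98.2%, 85.6% and 97.8% against 91.7%, 27.1% and 69.6%, at the unequal depths given above. Ptprz1 was read in 56.9%, 60.0% and 58.7% of thinned positive cells and in 33.3%, 3.34% and 13% of thinned zero cells. For Pdgfra these shares were 16.5%, 7.78% and 13% against 16.7%, 0.304% and 0%. A count of 0 in 23 cells allows a share of up to 14.8% (exact binomial), so at this equal depth the classes could not be told apart for Pdgfra in tumour 4, nor in tumour 1. Unthinned, Pdgfra was read in 77.1%, 24.4% and 45.7% of positive cells and in 16.7%, 1.22% and 0% of zero cells, at unequal depth.

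In the fit across all genes, 2148 genes passed the filter, of which 377 were higher (17.6%) and 327 lower (15.2%) in transgene-positive cells at an adjusted p under 0.05. The median log2 difference of all tested genes was 0.11. Without tumour 2 the counts were 116 higher and 125 lower among 1198 tested, and without tumour 4 they were 230 and 147 among 3267 tested. With DESeq2 they were 148 and 169, and with no tumour term in the edgeR model 145 and 117. WPRE was left out of this fit and the gate genes out of its calls, since they chose the cells.

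Of 25 oligodendrocyte progenitor genes, 10 passed the filter, and 9 of these rose and none fell, with a median of 2.85. Some of them passed through the positive sums alone, where they were high, so this count is a description. Over all 25 genes, tested or not, 24 had a higher level in the positive than in the zero sum in all 3 tumours, beside 25.4% of all 15061 genes with a UMI. Of those genes 12913 were too low to test, so this share is not matched to the list in level. The same limit holds for the shares of all genes with a UMI given for the lists below. Olig2, the partner of Olig1, rose by 3.62 ± 0.52 (log2, SE), from 66.7, 10.9 and 17.4 CPM in zero cells to 77.1, 231 and 122 CPM. In tumour 1 its levels were close to each other, while in tumours 2 and 4 the positive level was higher by a wide margin. Sox10, which drives the lineage, rose by 3.33 ± 0.49, from 0, 19.5 and 17.4 CPM to 99.1, 209 and 235 CPM. Its zero sum in tumour 1 held no UMI.

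Further members of the list were surface, secreted or cytoplasmic proteins. Cspg5, a proteoglycan, rose by 2.81 ± 0.43 and stood at 224, 276 and 243 CPM in positive cells against 0, 34.0 and 52.2 CPM. Bcan (brevican) rose by 2.89 ± 0.50, and Cntn1, an adhesion molecule, by 2.41 ± 0.55. Fabp7, a fatty-acid carrier of glial precursors, rose by 2.73 ± 0.43. It stood at 150, 400 and 217 CPM against 133, 29.2 and 69.6 CPM, and did not pass the test without tumour 2 (log2 difference 1.03, adjusted p = 0.239). Epn2, an endocytic adaptor, rose by 3.59 ± 0.67. Serpine2, a secreted protease inhibitor, was the tested member that did not pass, at 206, 311 and 270 CPM against 133, 320 and 174 CPM. Among members too low to test, Lhfpl3 stood at 106, 62.2 and 34.8 CPM and Pcdh15 at 110, 35.6 and 60.9 CPM in positive cells, and both had no UMI in any zero sum.

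The 15 genes with the largest rises, among those higher in all 3 tumours and at 50 CPM or more in the higher class, were picked by size and sign and have no test as a group. They were low in the zero sums and passed the filter through the positive sums, so the sizes of their rises are descriptions. For Nlgn3 the zero sums held 0, 2 and 0 UMIs. Sox11, Sox2 and Sox6, transcription factors of neural and glial precursors, rose by 4.27, 4.06 and 4.16 on the log2 scale. Sox11 stood at 308, 747 and 452 CPM in positive cells, at 33.3, 32.8 and 17.4 CPM in zero cells and at 529, 694 and 693 CPM in non-myeloid positive cells. Its transgene-positive myeloid level thus lay near the tumour-cell level in tumour 2. Nfib and Rorb, further transcription factors, rose by 3.92 and 4.29. Opcml (4.86), Nlgn3 (4.55), Dlgap1 (4.48), Gria2 (3.91) and Cacng4 (4.11) encode proteins of neural adhesion, synapses or glutamate receptors. Gria2, an AMPA receptor subunit, stood at 183, 236 and 139 CPM against 0, 10.9 and 34.8 CPM. Bex4 (4.55), Podxl2 (4.49) and Tmem108 (4.05) were also among the 15.

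Among the 15, Timp3 and Gm4951 stood highest in tumour 2 relative to the non-myeloid positive cells, at 220% and 265% of their level. Timp3, an inhibitor of matrix metalloproteinases, rose by 4.50 ± 0.48. It stood at 88.1, 742 and 113 CPM in transgene-positive cells and at 0, 26.7 and 17.4 CPM in zero cells. Non-myeloid positive cells had 175, 337 and 231 CPM, below the transgene-positive myeloid level in tumour 2. Gm4951, an interferon-inducible GTPase, rose by 4.17 ± 0.45, with 132, 578 and 313 CPM against 0, 25.5 and 34.8 CPM. In the non-myeloid positive cells it stood at 157, 218 and 429 CPM, again below the transgene-positive myeloid level in tumour 2. Cacng4, Bex4, Rorb, Dlgap1, Sox11 and Sox2 also stood above both other classes in tumour 2, at 100.5% to 126.5% of the non-myeloid positive level. Such levels were not limited to tumour 2. In tumour 4 Opcml, Sox2, Nfib and Rorb stood at 102.8%, 103.9%, 110.5% and 130.3% of that level. In tumour 1 Sox6 and Nlgn3 stood at 109.5% and 112.4%.

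Genes of other neural cells were fewer. Of 15 myelin genes 7 were tested, 3 rose and 1 fell. Over all 15, tested or not, 6 (40%) were higher in all 3 tumours, beside 25.4% of all genes with a UMI. Cnp, an enzyme of myelin-forming cells, stood at 91.7, 836 and 287 CPM in positive cells and at 33.3, 283 and 0 CPM in zero cells. Cnp and Cldn11, a tight junction protein of myelin, rose by 1.76 and 1.38 and did not pass without tumour 4 (1.24 and 0.92, edgeR adjusted p = 0.195 and 0.333). Neither passed with DESeq2 (adjusted p = 0.164 and 0.0518) or with no tumour term in the edgeR model (adjusted p = 0.413 and 0.278). Cldn11 did not pass without tumour 2 either (1.51, edgeR adjusted p = 0.0601), and in tumour 1 it stood at 139 CPM against 133 CPM. Trf, which encodes the iron carrier transferrin, fell by 0.97 on the log2 scale. Mbp stood at 95.4, 3644 and 1357 CPM in positive cells and at 0, 2692 and 713 CPM in zero cells, and did not pass (0.64 ± 0.34, adjusted p = 0.144). Myelin RNA was therefore present in transgene-zero myeloid cells of tumours 2 and 4 too.

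Neuronal and cycling genes were sparse. Both tested neuronal genes of 12 rose, Tubb3 by 2.37 ± 0.48 and Elavl3 by 2.17 ± 0.49. Elavl3, and Top2a below, were low in the zero sums and passed the filter through the positive sums, so these counts are descriptions. Over all 12 neuronal genes, tested or not, 7 (58.3%) were higher in all 3 tumours, beside 25.4% of all genes with a UMI. S100b, of 3 tested astrocyte genes, rose by 1.23 ± 0.42, and 6 of the 11 astrocyte genes with a UMI were higher in all 3 tumours. Of 15 cycling genes 4 were tested and 2 rose: Top2a, a topoisomerase of dividing cells, by 2.76 ± 0.63 and Stmn1 by 1.36 ± 0.36. Over all 15 cycling genes, 8 (53.3%) were higher in all 3 tumours. Top2a stood at 125, 66.7 and 113 CPM in positive cells, at 0, 7.29 and 34.8 CPM in zero cells and at 181, 71.4 and 113 CPM in non-myeloid positive cells. Mki67, a proliferation marker too low to test, stood at 51.4, 13.3 and 17.4 CPM against 33.3, 9.73 and 17.4 CPM.

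Myeloid state genes went the other way. Of 20 homeostatic microglia genes 15 were tested, and 14 fell while none rose, with a median of -1.53. Falls were called for 15.2% of all tested genes. Among 170 tested genes at least 8-fold higher in all myeloid than in non-myeloid cells, 160 fell. Over all 20, tested or not, 15 had a lower level in the positive sum in all 3 tumours, beside 5.23% of all genes with a UMI. Their summed level in positive cells was 43.9%, 35.5% and 40.7% of that in zero cells in tumours 1, 2 and 4. P2ry12, the purinergic receptor that guides microglial processes, stood at 14.7, 62.2 and 69.6 CPM against 133, 225 and 261 CPM and fell by 2.18 ± 0.42 on the log2 scale. Tmem119, a microglial surface protein, stood at 117, 57.8 and 69.6 CPM against 400, 311 and 278 CPM and fell by 2.22 ± 0.36. In both genes all positive sums lay below all zero sums.

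Csf1r and Cx3cr1 lay near the median of the list. Csf1r, the receptor for survival signals, stood at 220.2, 138 and 270 CPM in positive cells and 533, 473 and 470 CPM in zero cells, and fell by 1.45 ± 0.32 on the log2 scale. Cx3cr1, the fractalkine receptor, stood at 147, 271 and 148 CPM against 367, 576 and 591 CPM and fell by 1.53 ± 0.33. Without tumour 2 Csf1r did not pass (-0.98, adjusted p = 0.0714), and without tumour 4 Cx3cr1 did not (-1.37, adjusted p = 0.0856). Sparc, the 1 tested member that did not pass, stood at 99.1, 364 and 330 CPM against 233, 481 and 417 CPM.

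Other myeloid programmes showed counts of the same sign, beside the 15.2% of all tested genes and 160 of the 170 myeloid genes that fell. Of 19 measured genes of disease-associated microglia, a state seen near plaques and damaged tissue, 17 were tested, and 13 fell and none rose (median -1.19). Apoe, the lipid carrier, stood at 7846, 5907 and 7626 CPM in positive cells and at 22167, 19441 and 19496 CPM in zero cells, and fell by 1.64 ± 0.27 on the log2 scale. Trem2, the lipid-sensing receptor, fell by 1.87 ± 0.34 and the protease gene Ctsd by 1.49 ± 0.28. Gpnmb, a glycoprotein of phagocytes, did not pass the test, with 191, 182 and 339 CPM against 33.3, 112 and 209 CPM. It was also read in non-myeloid positive cells, at 229, 190 and 638 CPM.

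Genes of antigen presentation and inflammatory cytokines were called in the lower direction as well. The same held for 15.2% of all tested genes and 160 of the 170 myeloid genes above. All 6 tested MHC class II genes of 8 fell, with a median of -1.37. Cd74, the invariant chain, stood at 5457, 893 and 2652 CPM against 9067, 4221 and 6765 CPM (log2 difference -1.55 ± 0.28). H2-Aa stood at 2106, 298 and 791 CPM against 2700, 1111 and 1304 CPM (-1.11 ± 0.30). The gap was wide in tumour 2 and narrow in tumour 1. Of 25 genes of inflammatory cytokines and NF-kB, 24 were tested, and 19 fell and none rose (median -1.45). Il1b, an inflammatory cytokine, stood at 1339, 262 and 452 CPM against 2400, 1216 and 1583 CPM and fell by 1.73 ± 0.31 on the log2 scale. Ccl4, a chemokine, stood at 2525, 1338 and 3026 CPM against 7067, 5322 and 8557 CPM and fell by 1.78 ± 0.28. Tnf fell by 1.47 ± 0.32.

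Genes for uptake and digestion of other cells gave no call in the higher direction under this scaling. Of 27 measured engulfment genes, 13 were tested, and 10 fell and none rose (median -1.60). Falls were called for 15.2% of all tested genes and for 160 of the 170 myeloid genes. The share among those myeloid genes was larger than in the engulfment and lysosomal lists. Fcgr3, an Fc receptor, stood at 290, 107 and 200 CPM against 733, 467 and 939 CPM and fell by 2.02 ± 0.33 on the log2 scale. Itgb5, an integrin chain, and Gas6, a bridge to receptors on dying cells, fell by 1.60 each. Of 30 lysosomal genes 24 were tested, and 19 fell and none rose (median -1.26). Ctsz, a lysosomal protease, stood at 664, 498 and 713 CPM against 1733, 1578 and 2017 CPM and fell by 1.64 ± 0.30, and Lgmn fell by 1.49 ± 0.31. Of 15 genes of lipid handling 6 were tested and 3 fell, Apoe, Npc2 and Apoc1, an apolipoprotein that fell by 2.39 ± 0.40. Apoc1 stood at 36.7, 116 and 34.8 CPM against 33.3, 726 and 157 CPM, where the zero sum of tumour 1 was a single UMI and too shallow to show a difference.

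Macrophage or monocyte genes were split. Of 20 genes 7 were tested: Lyz2, Ms4a7 and Cybb fell, and Plac8 and Vim rose. Lyz2, lysozyme of phagocytes, stood at 2162, 329 and 704 CPM against 5433, 1390 and 2417 CPM (log2 difference -1.84 ± 0.29). Vim, an intermediate filament, stood at 818, 280.0 and 713 CPM in positive cells and at 367, 94.8 and 157 CPM in zero cells (1.49 ± 0.34). Vim and Plac8 are not macrophage-specific, and Vim stood at 1527, 246 and 1396 CPM in the non-myeloid positive cells. Csf3r, the granulocyte colony-stimulating factor receptor, was the single tested neutrophil gene and fell by 2.19 ± 0.53. Of the defining neutrophil markers, S100a8 had no UMI in any positive sum. Siglech and Irf8 of the dendritic list fell and Fscn1 rose, by 1.47 ± 0.39.

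**Figure D2:**
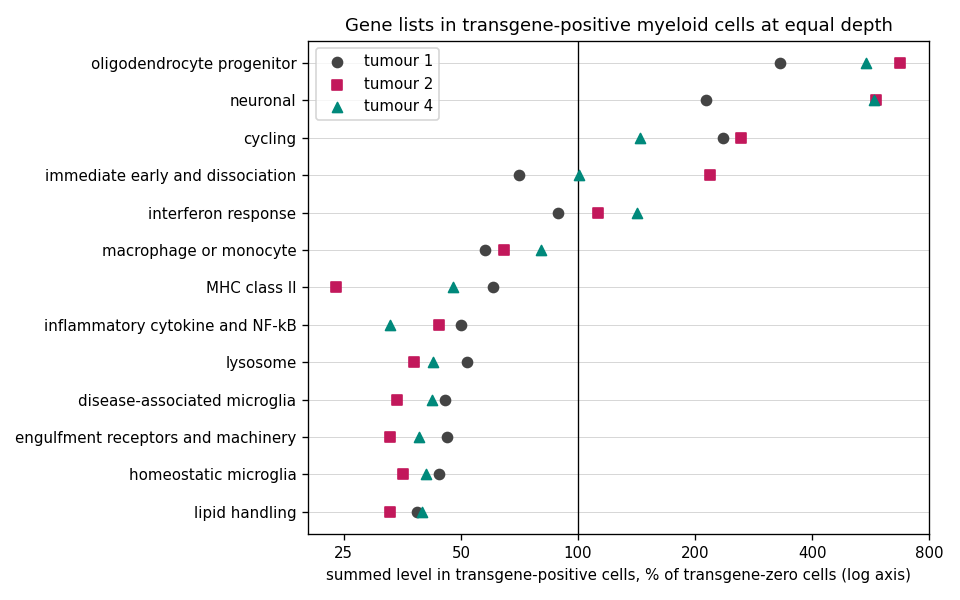
Summed level of each gene list in transgene-positive myeloid cells as a percentage of transgene-zero myeloid cells of the same tumour (log axis, cells thinned to 2500 UMIs), with 1 symbol per tumour and a line at 100%. The progenitor list lies at 330%, 672% and 550% in tumours 1, 2 and 4 and the homeostatic microglia list at 43.9%, 35.5% and 40.7%, while the interferon and immediate early lists lie on both sides of the line.

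The 15 largest falls, among genes lower in all 3 tumours and at 50 CPM or more, ranged from -2.61 (Gpr34) to -2.17 (Ppfia4) on the log2 scale. Among them were Gpr34, B4galt1, Cd14, Siglech, Lyn, Cebpa, Ccl9, Tmem119, Dhrs3, Tgfb1, Csf3r, Ms4a7, P2ry12 and Ppfia4. Cd14, the co-receptor for bacterial lipopolysaccharide, stood at 440, 169 and 174 CPM against 1700, 783 and 991 CPM and fell by 2.32 ± 0.32. Lyn, a kinase of myeloid signalling, Cebpa, a myeloid transcription factor, and Dhrs3 had no UMI in the positive sum of tumour 4. Tgfb1, a cytokine that maintains microglia, stood at 143, 53.3 and 87.0 CPM against 500, 267 and 383 CPM. Each of the 15 genes had a lower level in positive than in zero cells in every tumour, as the choice of genes required.

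A second scaling was used, since the share of all RNA that is myeloid differed between the classes. Genes at least 8-fold higher in all myeloid than in non-myeloid cells (395, gate genes left out) made up 46.2%, 29.5% and 35.8% as large a share of RNA in positive as in zero cells. Of the 170 tested among them, 160 fell and none rose under the common scaling. With library sizes set by these genes instead, 1719 genes were higher (80.0%) and 1 was lower (0.0466%), and the median of all tested genes moved from 0.11 to 1.79. Of the 170, Cxcl1 (1.3) and Pim1 (0.82) were then higher and Cd14 (-0.75) was lower, so Cd14 was the gene called lower under both scalings.

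Relative to other myeloid genes, the state lists had medians near 0 or under the 1.79 of all genes. Medians under this scaling were 0.05 for homeostatic microglia, 0.21 for MHC class II, 0.12 for inflammatory genes, -0.04 for engulfment, 0.34 for lysosomal genes and 0.50 for disease-associated microglia. Members called higher were 1 of 15, 0 of 6, 4 of 24, 3 of 13, 4 of 24 and 5 of 17 in these lists, all shares below the 80.0% of all genes, and no member of them was called lower. Cx3cr1 had a difference of 0.10, Csf1r of 0.16, Cd74 of 0.01 and Apoe of -0.07, and none of these passed the test. Medians near 0 follow in part from the scaling itself, which is set by myeloid genes, and the shift of all genes turns the sign of several members. The values give no cause for the falls under the common scaling. Olig1 and Ptprz1 were 4.39 and 5.04 higher under the same scaling, and the progenitor median was 4.70.

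**Figure D3:**
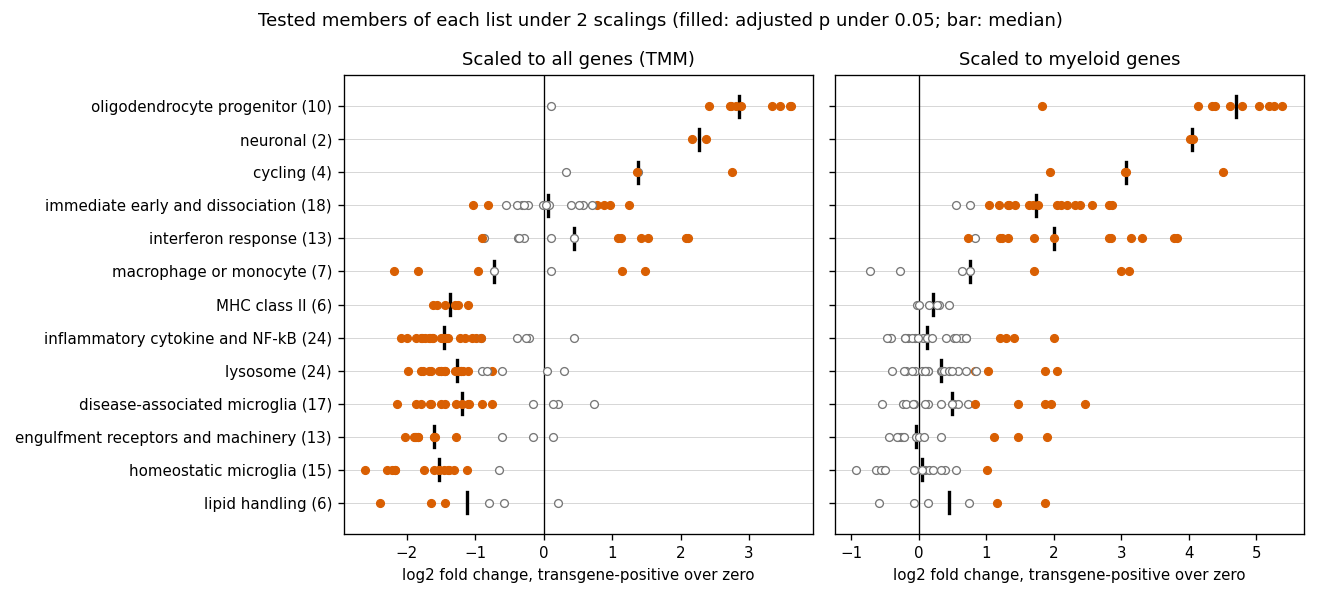
Log2 fold change of each tested list member, transgene-positive over transgene-zero myeloid cells, scaled to all genes by TMM (left) and to 395 myeloid genes (right). Filled points passed an adjusted p under 0.05, bars mark list medians, and the number of tested members is in parentheses. The homeostatic microglia median moves from -1.53 to 0.05 and the progenitor median from 2.85 to 4.70.

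Levels in transgene-positive cells mostly lay between those of the other classes. Among genes of at least 200 CPM in 1 of the 3 classes and at least 4-fold apart between transgene-zero myeloid and non-myeloid positive cells, the transgene-positive level lay between both for 299 of 307 in tumour 1. The counts were 251 of 282 in tumour 2 and 322 of 338 in tumour 4. For 200 myeloid genes, chosen without the transgene-positive cells, the median level was 41.0%, 27.9% and 31.5% of that in zero cells. For 12 non-myeloid genes chosen likewise it was 57.6%, 66.2% and 67.0% of that in non-myeloid positive cells. The summed progenitor list stood at 67.8%, 87.4% and 71.4% of the non-myeloid positive level.

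Cell by cell, progenitor transcripts tended to be lower where gate transcripts were higher within the positive class. Spearman's rho between gate genes and the 25 progenitor genes per 10000 UMIs was -0.74 over 109 cells of tumour 1, -0.21 over 90 of tumour 2 and -0.45 over 46 of tumour 4. In the zero class it was 0.18 over 12 cells, 0.13 over 329 and -0.36 over 23, so tumour 4 had similar values in both classes. Cells of a tumour share a library, and both measures are shares of the same total, so these are descriptions. Positive cells with a gate value of 15 to 30 had progenitor medians of 32.6, 43.3 and 40.5 UMIs per 10000. With 30 to 100 they had 30.8, 43.4 and 38.5, and with 100 or more 16.0, 20.7 and 26.5. Zero cells had 7.33, 5.10 and 4.77. The positive cells richest in myeloid transcripts thus still held a higher progenitor median than zero cells in each tumour.

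**Figure D4:**
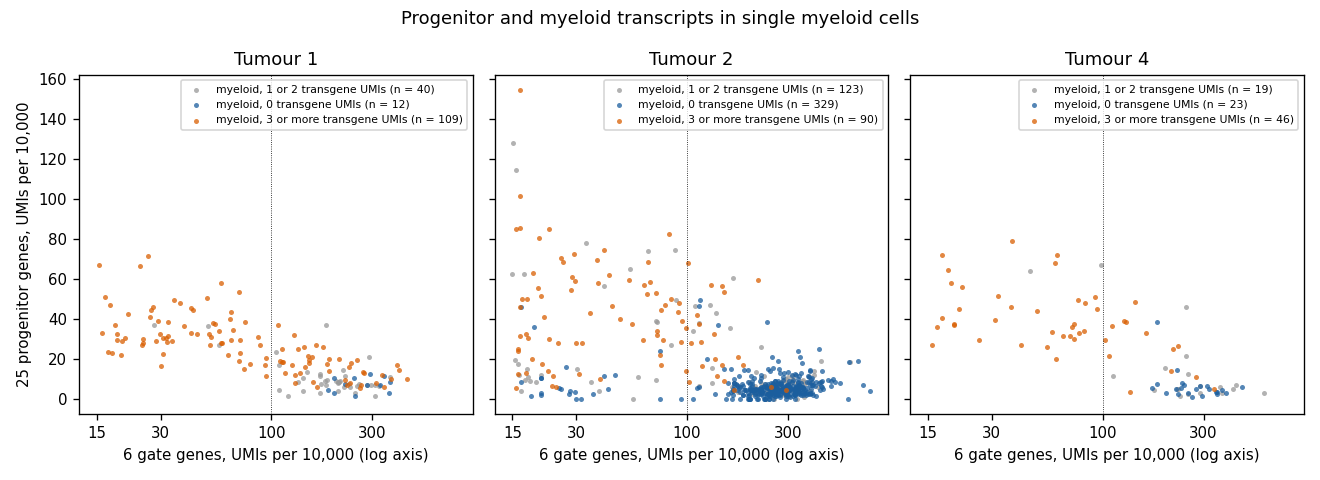
Each point is a myeloid cell, by the 6 gate genes (UMIs per 10000, log axis) and the 25 progenitor genes (UMIs per 10000), in 3 panels for tumours 1, 2 and 4, coloured by WPRE UMIs. Transgene-zero cells gather at the lower right, with medians of 266.1, 261.8 and 264.7 gate UMIs, and transgene-positive cells spread from the upper left towards them; the dotted line marks 100 gate UMIs.

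Both measures went with the number of WPRE UMIs per cell, in steps that differed by tumour. In tumour 1 the gate median went from 266.1 at 0 WPRE UMIs through 204, 158 and 79.0 to 41.9 at 11 or more, and the progenitor median from 7.33 to 30.8. Myeloid cells with 1 or 2 WPRE UMIs resembled zero cells in medians, with 248 gate UMIs per 10000 in tumour 2 and 249 in tumour 4. Their progenitor medians were 8.39, 7.90 and 6.09. Sums over these cells at equal depth were higher than in zero cells, with 1090, 1538 and 1305 CPM of the progenitor list beside 833, 616 and 661 CPM. In tumours 2 and 4 the step in medians came between 1 or 2 and 3 to 5 WPRE UMIs, where progenitor medians reached 42.3 and 32.9. Past that step tumour 2 showed no further order: at 3 to 5, 6 to 10 and 11 or more WPRE UMIs its gate medians were 36.9, 69.6 and 39.3 and its progenitor medians 42.3, 34.5 and 37.4. Median total UMIs per cell went with WPRE, from 9318 at 0 to 25129 at 11 or more in tumour 1, and the part of depth in this grading was not tested.

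**Figure D5:**
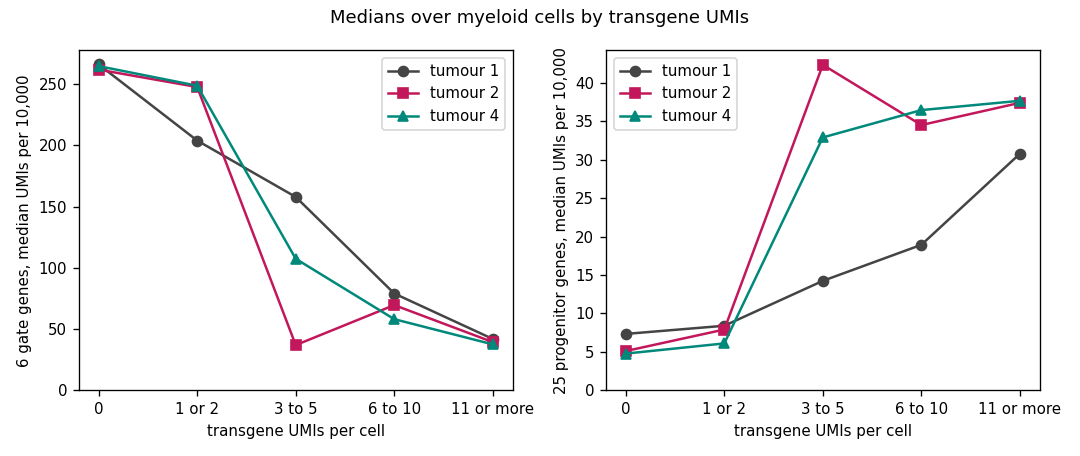
Median UMIs per 10000 of the 6 gate genes (left) and of the 25 progenitor genes (right) over myeloid cells by WPRE UMIs per cell, with 1 line per tumour. Progenitor medians go from 7.33, 5.10 and 4.77 without WPRE to 30.8, 37.4 and 37.7 at 11 or more WPRE UMIs.

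The contrast was repeated among cells rich in myeloid transcripts, at 100 or more gate UMIs per 10000. This kept 43 of 109, 21 of 90 and 13 of 46 positive cells and 12 of 12, 306 of 329 and 23 of 23 zero cells. The positive cells kept had homeostatic microglia medians of 22.2, 44.6 and 29.1 UMIs per 10000 in tumours 1, 2 and 4. All zero cells, before this limit, had 33.1, 51.0 and 48.7, so the limit did not make the classes equal in myeloid content. Of 652 genes tested, 33 were higher (5.06%) and 4 were lower (0.613%). Olig1 was 2.24 ± 0.41 and Ptprz1 2.62 ± 0.70 higher on the log2 scale (edgeR adjusted p = 0.00258 and 0.0321), and Sox11 was 3.51 ± 0.70 higher. Tubb2b (2.32), Tcf4 (2.16), Gpm6b (2.16), Ptn (1.97), a growth factor of glia, and Ccnd1 (1.88), a cyclin, were higher as well. Mitochondrial transcripts were among the 33, such as mt-Co1 at 1.01 ± 0.14.

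Tmem119, Cd14, Ppfia4 and Cxcl13, a B-cell chemokine, were the 4 lower genes in these cells, by -1.18, -0.92, -1.55 and -1.13. Cx3cr1 (-0.25) and Csf1r (-0.08) did not pass. This limit was added with the data in view, and the fit tested fewer genes than the first. With the myeloid scaling and this gate together, 91 genes were higher and 0 lower, and 177 of 652 had an unadjusted p under 0.05.

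Transgene status made a different contrast among non-myeloid cells. Those cells, 7761 in all, were split by the same WPRE limits into 6745 positive and 206 zero cells, and the difference of the contrasts was tested in 1 model. Of 4119 genes 293 had a higher (7.11%) and 96 a lower contrast in myeloid cells (2.33%). Olig1 differed by 2.32 ± 0.45 and Ptprz1 by 2.41 ± 0.52 on the log2 scale (edgeR adjusted p = 0.000179 and 0.000724). Non-myeloid zero cells held 1187, 708 and 1327 CPM of Olig1, beside the 1158, 884 and 1675 CPM of the positive ones. Pdgfra differed by 2.09 (adjusted p = 0.186). Of the tested progenitor genes 17 of 21 had a higher contrast in myeloid cells, and of the MHC class II genes 5 of 6 had a lower one. Without tumour 2 the whole count of 389 was 31, without tumour 4 it was 79, and with no tumour term in the edgeR model it was 0, with 406 genes at an unadjusted p under 0.05. DESeq2 gave 207.

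Interferon response genes included calls in both directions. Of 16 interferon response genes 13 were tested, 6 rose (Ifit1, Ifit3, Oasl2, Rtp4 and Gbp2 among them) and Irf7 fell, with a median of 0.45. Over all 16, 6 (37.5%) were higher and 3 (18.8%) lower in all 3 tumours, beside 25.4% and 5.23% of all genes with a UMI. Ifit1, an antiviral RNA-binding protein, stood at 195, 369 and 322 CPM in positive cells, at 100.0, 62.0 and 87.0 CPM in zero cells and at 104, 175 and 305 CPM in non-myeloid positive cells (log2 difference 2.09 ± 0.38). Its level in positive myeloid cells was above both other classes in every tumour, by little in tumour 4. Gbp2, a GTPase, stood at 139, 169 and 296 CPM against 100.0, 31.6 and 34.8 CPM (2.11 ± 0.43). Irf7, the interferon regulatory factor, stood at 261, 280.0 and 243 CPM against 500, 624 and 226 CPM and fell by 0.90 ± 0.33.

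Immediate early and dissociation genes, which respond within minutes to stimuli and to tissue handling, were mixed. Of 20 genes 18 were tested, 4 rose (Fos, Egr1, Hspa1a and Hsp90aa1) and Atf3 and Ier5 fell, with a median of 0.06. These counts were near the 17.6% and 15.2% of all tested genes and give no result about the list. Fos stood at 826, 4960 and 1626 CPM in positive cells and at 1033, 1303 and 957 CPM in zero cells, and Egr1 at 407, 3200 and 600.0 CPM against 433, 441 and 452 CPM. In tumour 1 neither positive level exceeded the zero level, and in tumour 4 both did by less than in tumour 2. Fos and Egr1 did not pass without tumour 2 (0.32 and 0.24, adjusted p = 0.546 and 0.753) or without tumour 4 (0.73 and 1.48, adjusted p = 0.592 and 0.179). With no tumour term in the model they did not pass either (1.07 and 1.60, adjusted p = 0.266 and 0.178). The mitochondrial share of positive cells was also highest in tumour 2, at 9.40%, and its part in these levels was not tested.

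Of the other altered genes of the model, Trp53 was called, though not in several other settings, and H3f3a was not. Trp53 stood at 114, 80.0 and 69.6 CPM in positive cells and at 66.7, 26.7 and 17.4 CPM in zero cells (2, 22 and 1 UMIs). It rose by 1.34 ± 0.51 on the log2 scale (edgeR adjusted p = 0.0299). It did not pass without tumour 4 (1.13, adjusted p = 0.195) or with another thinning seed (1.14, adjusted p = 0.0932). Without thinning (0.59, adjusted p = 0.144) and with DESeq2 (1.34, adjusted p = 0.275) it did not pass either. Without tumour 1 it passed (1.41, edgeR adjusted p = 0.0347). H3f3a, expressed by every cell, stood at 983, 822 and 870 CPM against 967, 554 and 626 CPM and did not pass (0.25 ± 0.31). Under the myeloid scaling both were higher, by 3.09 and 1.85. Endogenous and construct transcripts of these genes were not told apart by the counts.

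Olig1 and Ptprz1 also passed the test without the cells of highest Scrublet score. Leaving out the 92, 21 and 171 highest-scoring cells of tumours 1, 2 and 4, of which 6, 11 and 1 were transgene-positive myeloid cells, gave 2.79 ± 0.39 for Olig1 and 3.59 ± 0.44 for Ptprz1, with 373 genes higher and 287 lower. At most 10% mitochondrial UMIs gave 2.61 and 3.19, and pairs of cells matched on total UMIs (12, 90 and 23 pairs, no thinning) gave 1.84 and 3.29. All 6 of these values passed the test. Since Scrublet did not work on these tables, barcodes holding 2 cells were not identified, and their part in the progenitor levels was not tested.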

How the data were processed

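Single-cell RNA was counted in 3 tumours with 1 genotype, 1 library each. The deposited tables hold raw UMI counts per gene and cell barcode, as the authors' counting made them. The submitters' processing notes list STAR 2.5.1, Cell Ranger 1.3.0 and mm10. The filter on barcodes is not given in the sources. Every table column was a barcode of its own tumour.

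Cells were filtered and split as the report states, thinned to 2500 UMIs (seed 11) and summed per tumour and class. Sums were tested with edgeR 4.0.16 (R 4.3.3; quasi-likelihood, TMM, filterByExpr, tumour as block, Benjamini-Hochberg). The SE is the log2 difference over the square root of F. WPRE was left out of libraries and tests, gate genes out of tests. DESeq2 1.42.0 and the other settings of the closing section were alternatives. Doublet scores came from Scrublet in scanpy 1.11.5. The tests were tested on simulated data. Both classes come from the same animal, which pairs them; deviations of same-tumour sums correlated at 0.37, 0.53 and 0.31. Positions are from GENCODE on GRCm38.

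Named are Olig1, Ptprz1 and Pdgfra, members of 24 gene lists, and, in each direction, up to 15 genes of largest change among those past an adjusted p of 0.05, with the same sign in 3 tumours and at least 50 CPM in the higher class. Genes named from the stricter gate and from tumour 2 alone were chosen after their values were seen. The cells and lists were chosen with earlier results of these data known. Values of some genes are not reported here.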

Additional observations from a re-analysis of the deposited data

Results flagged for a closer look

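The transgene contrast differed between myeloid and non-myeloid cells for 389 genes in an interaction test across 4119 genes (edgeR, adjusted p under 0.05). Among them were Olig1, whose log2 contrast was 2.32 higher in myeloid cells, and Ptprz1, whose contrast was 2.41 higher.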

How the results depend on the processing

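Counts of genes higher and lower were 377 and 327. They were 148 and 169 with DESeq2, 540 and 106 with no filter on low counts, 1336 and 1175 without thinning, 220 and 172 at a gate of 30, and 229 and 261 at 10% mitochondrial UMIs. At a gate of 100 they were 33 and 4, scaled to myeloid genes 1719 and 1, and with both 91 and 0. Without a replicate block they were 145 and 117. Leaving out 1 tumour gave 116 to 437 and 125 to 338, the fewest without tumour 2. The gate of 100, alone or with the scaling, and WPRE status after thinning were chosen after seeing the data. Genes whose contrast differed between myeloid and non-myeloid cells numbered 207 with DESeq2, 24 with no filter, 1190 without thinning, 0 without a replicate block (edgeR; 406 at an unadjusted p under 0.05) and 31 to 386 without 1 tumour. Fewer genes were tested at stricter gates and more with no filter or thinning; for the other changes the cause was not tested.

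Transgene-positive shares of tumours 1, 2 and 4 were 54.0%, 11.8% and 38.6% at 5 or more WPRE UMIs, 92.5%, 39.3% and 73.9% at 1 or more, and 46.7%, 4.99% and 24.5% at a gate of 100. In tumour 2 the share was 11.3% at a gate of 30 and 11% at 10% mitochondrial UMIs. A share within 1 tumour gives no value with that tumour left out.

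Signs turned mostly with the scaling to myeloid genes, which by construction shifts every gene up. Scaled log2 differences were 0.63 for Trf, 0.10 for Cx3cr1, 0.16 for Csf1r, 1.01 for Sparc, 0.091 for Ctsd, 0.012 for Cd74, 0.46 for H2-Aa, 0.11 for Tnf, 1.3 for Cxcl1, 0.82 for Pim1, 0.0093 for Itgb5, 0.093 for Lgmn, 0.74 for Irf7 and 0.77 for Atf3. With the gate of 100 as well they were 0.073 for Trf, 0.10 for Cx3cr1, 0.32 for Csf1r, 0.60 for Sparc, 0.014 for Apoe, 0.17 for Ctsd, 0.17 for Cd74, 0.59 for H2-Aa, 0.13 for Tnf, 0.34 for Pim1, 0.052 for Lgmn, 0.089 for Irf7 and 0.29 for Atf3. At the gate of 100 alone Sparc was 0.20 and H2-Aa 0.22, and at a gate of 30 Cxcl1 was 0.068. Serpine2 was -0.040 with status after thinning, -0.099 without thinning and from -0.080 to 0.67 without 1 tumour. With status after thinning Cxcl1 was 0.10 and H3f3a -0.024. Cxcl10 was -0.38 without thinning, -0.30 in matched pairs and from -0.61 to 1.42 without 1 tumour. The cause of these was not tested.

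Depth limits the zero class most, with 12 cells in tumour 1 and 23 in tumour 4, and Pdgfra most among the 3 progenitor genes.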

Other observations

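In tumour 2, 36 genes of at least 200 CPM stood more than 2-fold above both transgene-zero myeloid and non-myeloid transgene-positive cells in the transgene-positive myeloid cells. In tumours 1 and 4 there was 1 such gene each, Gm42418 and Hspa1a. These genes were singled out by their values, so no test is given. Interferon-induced genes were among the 36. Iigp1, an interferon-induced GTPase, stood at 716 CPM beside 38.9 in transgene-zero and 268 in non-myeloid positive cells. Irf1, an interferon-induced transcription factor, stood at 547 CPM beside 55.9 and 184, and Socs1, a brake on cytokine signalling, at 356 beside 24.3 and 106. Cxcl10, an interferon-induced chemokine, stood at 1316 CPM beside 250 and 309. In tumour 1 it stood at 767 CPM beside 533 and 364, but in tumour 4 at 348 CPM beside 1113 and 243. Iigp1, Irf1 and Socs1 lay below the non-myeloid positive level in tumour 4, at 252, 130 and 113 CPM beside 410, 235 and 154.

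Immediate early genes were also among them. Egr4 stood at 338 CPM beside 8.51 in transgene-zero and 134 in non-myeloid positive cells, Egr2 at 351 beside 60.8 and 149, and Klf6 at 1107 beside 413 and 476. Less studied genes in this setting reached similar gaps, such as Commd7 at 604 CPM beside 43.8 and 51.9 and Dcaf17 at 1609 beside 156 and 794. Commd7 stood at 29.4 and 26.1 CPM in transgene-positive cells of tumours 1 and 4. The mitochondrial share of the transgene-positive cells was 9.40% in tumour 2 and 6.75% and 6.07% in tumours 1 and 4, and its part in these levels was not tested.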
